A study of Mus musculus with 6 samples.

Results

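Estrogen receptor alpha (ERα) binding after tamoxifen was compared between the uterus of ERα AF-2 mutant mice and that of wild-type mice. The members are the 36538 peaks of the mutant tamoxifen list and the 37327 peaks of the wild-type tamoxifen list. Merged by overlap, these 2 lists form 49950 regions. All 6 lists of the series, merged separately, form 65146. A peak with at least 1 bp in common with a peak of the other genotype was called shared, and any other peak mutant only or wild type only. The method was chromatin immunoprecipitation with an antibody to ERα followed by sequencing (ChIP-seq), and each list is the set of places where the authors called a peak.

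All mice were ovariectomized females of the C57BL/6J strain, aged 12 weeks, so that both genotypes lacked ovarian estrogen. The AF-2 mutant animals (AF2ERKI, titled Af2KI) and their wild-type littermates received tamoxifen intraperitoneally at 2 mg/kg in DMSO, and uteri were taken 1 h later. The libraries used for comparison came from mutant and wild-type mice given fulvestrant (ICI182780, called ICI here) at 2 mg/kg, or 50 µl of DMSO as vehicle. Each group had 6 mice and 1 library, and the labels do not say how the tissue of these mice was combined. Cell types of the uterus are mixed in each library, and differences between animals were not measured. All 6 titles also hold the code E1h, which no label explains. The treatment labels name no estrogen, but whether the code stands for one given to all groups could not be settled, and each list would then describe binding with that estrogen present.

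ERα is a nuclear receptor that binds DNA as a dimer and activates or represses nearby genes. It has a ligand-independent activation surface in its N-terminal part (AF-1) and a ligand-dependent surface in its ligand-binding domain (AF-2), on which coactivators dock when an agonist is bound. Tamoxifen is a triphenylethylene that blocks docking on AF-2 in wild-type receptor but leaves AF-1 active, and it is known as a partial agonist in the rodent uterus. The comparison asks whether a receptor with a mutated AF-2 surface is placed on the genome by tamoxifen as the wild-type receptor is.

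With tamoxifen, about as many sites were called in each genotype, and nearly all of the difference between the lists lay in which sites they held. Of the mutant peaks, 23914 or 65.4% were shared (exact 95% binomial interval 65.0 to 65.9) and 12624 or 34.6% were mutant only (34.1 to 35.0). Of the wild-type peaks, 23914 or 64.1% were shared (63.6 to 64.6) and 13413 or 35.9% were wild type only (35.4 to 36.4). As regions of the union, 25.3% were mutant only, 26.9% wild type only and 47.9% shared. All intervals cover counting error only and treat peaks as independent. Sites of one genotype tended to follow one another, as given below, so the intervals may be too narrow. No group was replicated, so the spread between libraries is unknown and no difference was tested.

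Shared peaks overlap by definition, so the midpoints of a pair must lie under 200 bp apart, and most lay much closer. The shared peaks formed 23913 regions, of which 23911 held 1 peak of each genotype and 2 held 3 peaks. The midpoints of a mutant peak and its wild-type partner lay a median of 12 bp apart, 90% of pairs lay within 39 bp and 99% within 110 bp. The median signed shift was 0 bp. Of the mutant peaks called shared, 23629 overlapped their partner by 100 bp or more of the 200 bp, and 285 by less. Just outside the limit, 156 mutant-only peaks and 151 wild-type-only peaks had their midpoint within 0.3 kb of a midpoint of the other list. The genotype classes were therefore separated by few borderline pairs. Within 1 kb of a peak of the other genotype lay 11.3% of mutant-only peaks (10.8 to 11.9) and 8.63% of wild-type-only peaks (8.16 to 9.12).

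The first shared sites along chromosome 1 show this placement. At the first, the mutant peak covered 3349982 to 3350181 and the wild-type peak 3349955 to 3350154, in mm9 and counting from 1 as throughout. At the second, the mutant peak covered 4539845 to 4540044 and the wild-type peak 4539839 to 4540038. Both sites were also called with ICI in both genotypes and in neither vehicle list. They are the first by position and were not picked for strength, which the lists do not give.

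The other 4 lists, which had no part in defining the classes, overlapped mutant-only and wild-type-only sites at different rates. Of mutant-only peaks, 67.7% were also called in the mutant ICI list (66.9 to 68.5) and 16.8% in the wild-type ICI list (16.2 to 17.5). Of wild-type-only peaks, 38.1% were called in the mutant ICI list (37.3 to 39.0) and 26.8% in the wild-type ICI list (26.0 to 27.6). Shared peaks, counted in the mutant list, were called in the mutant ICI list at 95.01% (94.7 to 95.3) and in the wild-type ICI list at 64.8% (64.2 to 65.4). Each genotype's own sites were thus found more often in the ICI list of that genotype than the other genotype's sites were, and shared sites most often in both. The mutant ICI list is 1.73 times as long as the wild-type ICI list, so shares can be set against each other within an ICI list, not between the ICI lists.

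**Figure D1:**
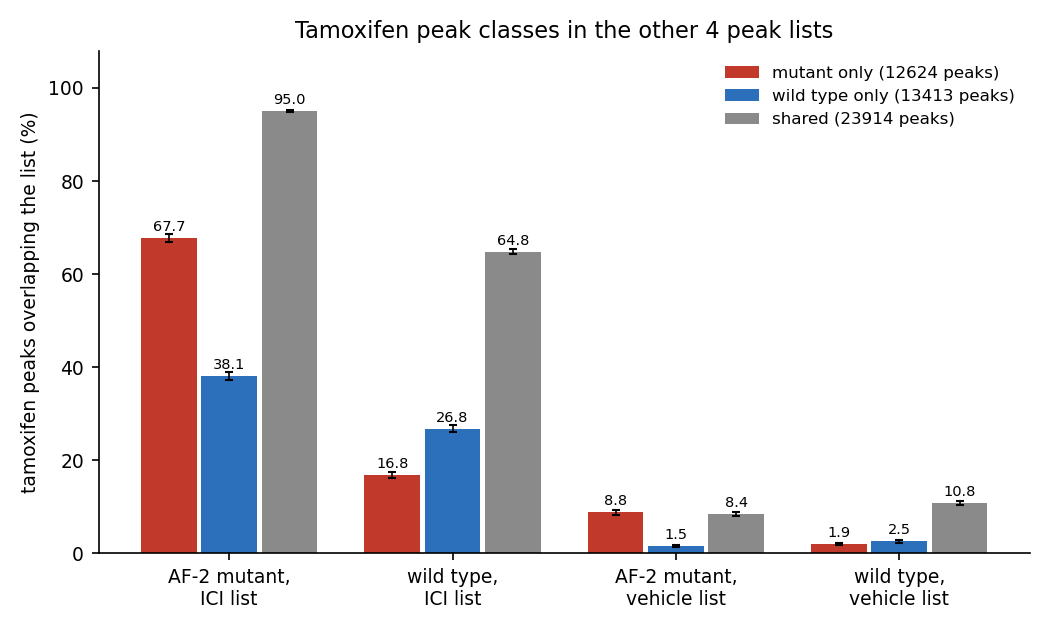
Share of tamoxifen peaks (y axis, percent) of each class that overlapped a peak of the ICI and vehicle lists (x axis), with shared peaks counted in the mutant list; error bars are exact 95% binomial intervals and cover counting error only. Mutant-only peaks stand above wild-type-only peaks in both mutant lists (67.7% against 38.1% with ICI) and below them in both wild-type lists (16.8% against 26.8% with ICI).

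Sites called in exactly 1 of the ICI lists were divided differently between the classes. Among mutant-only peaks, 6927 were in the mutant ICI list without the wild-type one and 498 the other way round. Among wild-type-only peaks, 3513 were in the mutant ICI list without the wild-type one and 1990 the other way round. Among shared peaks, counted in the mutant list, 7671 were in the mutant ICI list without the wild-type one and 452 the other way round. The split of mutant-only peaks thus leaned no more to the mutant than that of shared peaks, while wild-type-only peaks leaned to it less. In both ICI lists at once were 12.9% of mutant-only peaks (12.3 to 13.5), 12.0% of wild-type-only peaks (11.4 to 12.5) and 62.9% of shared peaks (62.3 to 63.5).

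Mutant vehicle peaks were about as frequent at mutant-only sites as at shared sites, while wild-type vehicle peaks were less frequent at wild-type-only sites than at shared sites. Mutant-only sites held a mutant vehicle peak in 1106 cases or 8.76% (8.27 to 9.27), against 8.40% of shared sites (8.05 to 8.76). They held a wild-type vehicle peak in 240 cases or 1.90% (1.67 to 2.15). Wild-type-only sites held a mutant vehicle peak in 1.48% (1.28 to 1.69) and a wild-type vehicle peak in 342 cases or 2.55% (2.29 to 2.83), against 10.8% of shared sites with a wild-type vehicle peak (10.4 to 11.2). Of the 1106 mutant-only sites with a mutant vehicle peak, 816 also had a mutant ICI peak, so that these sites were called in all 3 mutant libraries. Of the 342 wild-type-only sites with a wild-type vehicle peak, 213 were called in all 3 wild-type libraries.

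Seen from the other lists, peaks at a site of exactly 1 tamoxifen list were divided unevenly. Of such mutant ICI peaks, 62.5% lay at a mutant-only site (61.7 to 63.4), and of such mutant vehicle peaks 84.8% did (82.7 to 86.7, n = 1305). Of such wild-type ICI peaks, 37.1% lay at a mutant-only site (35.8 to 38.4), and of such wild-type vehicle peaks 41.3% did (37.3 to 45.5, n = 583). Mutant-only sites made up 48.5% of all single-genotype tamoxifen peaks (47.9 to 49.1), so both mutant lists lay above that level and both wild-type lists below it. The mutant vehicle list stood farthest from it.

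Some tamoxifen sites had no counterpart in any other list. These were 3295 or 26.1% of mutant-only peaks (25.3 to 26.9), 6153 or 45.9% of wild-type-only peaks (45.0 to 46.7) and 641 or 2.68% of shared peaks (2.48 to 2.89). Counting every library of the other genotype, 10307 mutant-only peaks (81.6%) were in no wild-type list, and 8176 wild-type-only peaks (61.0%) were in no mutant list. The longest list of the series, mutant ICI with 45837 peaks, is a mutant list, and the wild-type ICI list has 26482, so these last shares differ in the number of peaks they could meet. The same imbalance bears on the shares found in no other list. For mutant-only sites the longer ICI list is that of their own genotype, and for wild-type-only sites it is that of the other.

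Mutant-only sites lay nearer to shared sites than wild-type-only sites did. The median distance from the midpoint to the nearest shared region was 15.4 kb for mutant-only peaks (order-statistic 95% interval 14.9 to 15.9) and 21.1 kb for wild-type-only peaks (20.4 to 21.9). The quartiles were 5.11 and 44.2 kb for mutant-only peaks, and 7.05 and 58.2 kb for wild-type-only peaks. Within 5 kb of a shared region lay 24.7% of mutant-only peaks (23.9 to 25.4) and 18.97% of wild-type-only peaks (18.3 to 19.6). Beyond 100 kb lay 1332 mutant-only peaks and 2013 wild-type-only peaks. This leaves out 1 and 3 peaks on sequences outside chromosomes 1 to 19 and X that held no shared region. Shared regions themselves had another shared region at a median of 12.6 kb (12.2 to 12.9).

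The ICI lists gave the same order with their own shared regions. The median distance to a site shared under ICI was 19.4 kb for ICI peaks called only in the mutant (18.9 to 19.8) and 25.9 kb for those called only in the wild type (24.8 to 26.9).

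**Figure D2:**
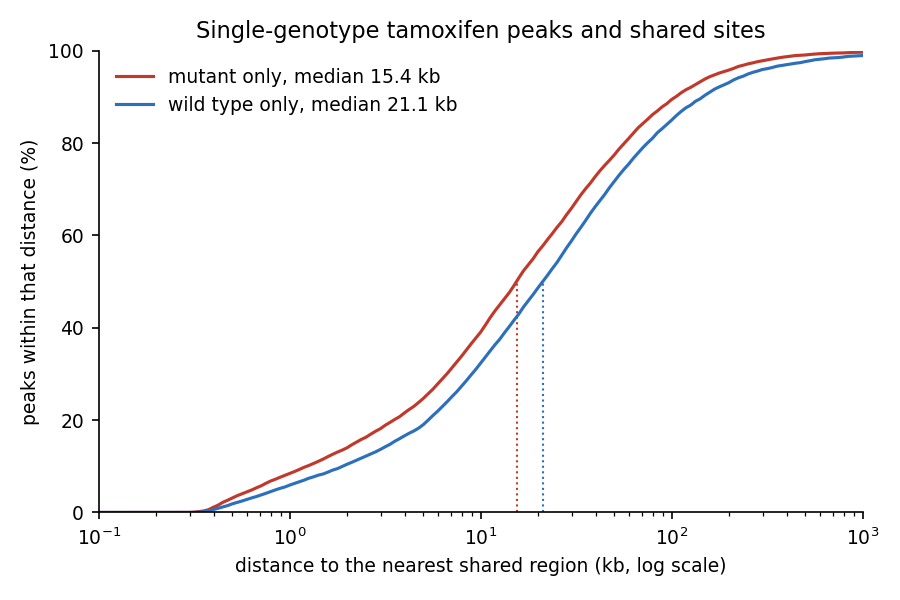
Cumulative share of mutant-only and wild-type-only tamoxifen peaks (y axis, percent) within a given distance of the nearest shared region (x axis, kb, log scale), with dotted lines at the medians. The mutant-only curve lies to the left, with a median of 15.4 kb against 21.1 kb for wild-type-only peaks.

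The share of sites in the mutant ICI list was lower far from shared regions in both classes. Of mutant-only peaks within 5 kb of a shared region, 70.9% were in the mutant ICI list (69.3 to 72.5), and beyond 100 kb 64.1% were (61.5 to 66.7). Of wild-type-only peaks within 5 kb, 43.5% were in the mutant ICI list (41.6 to 45.5), and beyond 100 kb 30.1% were (28.1 to 32.2). The share of wild-type-only peaks in the wild-type ICI list was 25.2% within 5 kb (23.5 to 26.9) and 27.8% beyond 100 kb (25.8 to 29.8). Vehicle overlap with a site's own genotype was higher far from shared sites in both classes. Mutant vehicle peaks lay at 7.10% of mutant-only sites within 5 kb (6.22 to 8.06) and at 11.3% of those beyond 100 kb (9.61 to 13.1). Wild-type vehicle peaks lay at 1.77% of wild-type-only sites within 5 kb (1.29 to 2.36) and at 4.07% beyond 100 kb (3.25 to 5.03). For the vehicle list of the other genotype, wild-type vehicle peaks lay at 1.25% of mutant-only sites within 5 kb (0.892 to 1.71) and 3.45% beyond 100 kb (2.54 to 4.58). Mutant vehicle peaks lay at 1.18% of wild-type-only sites within 5 kb (0.797 to 1.68) and 1.79% beyond 100 kb (1.26 to 2.47), where the intervals overlap.

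The most remote sites were listed by distance. The mutant-only peak farthest from a shared region, on chromosome 17 at 95148859 to 95149058, was 3193 kb away and was also called in the mutant ICI and mutant vehicle lists. Its neighbour in that class at 94923158 to 94923357 was 2967 kb away and was in no other list. The next, on chromosome X at 85552681 to 85552880, was 2531 kb away and was also a mutant ICI peak. The most remote wild-type-only peak, 3612 kb from a shared region, covered 61412782 to 61412981 of chromosome X. The next were 2974 kb away at 103063748 to 103063947 of chromosome 1 and 2721 kb away at 94677429 to 94677628 of chromosome 17. None of these 3 was called in the ICI or vehicle lists.

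The balance between the single-genotype classes moved with the local density of shared sites. Among single-genotype peaks with no shared region within 50 kb, 2854 were mutant only and 3803 wild type only, so 42.9% were mutant only (41.7 to 44.1). With 1 shared region within 50 kb, 46.3% were mutant only (45.0 to 47.6). With 2 to 3, 50.6% were (49.5 to 51.7), with 4 to 5, 53.8% (52.1 to 55.5), and with 6 to 9, 55.3% (53.0 to 57.5). With 10 or more the share was 54.7% (49.4 to 59.9), from 198 mutant-only and 164 wild-type-only peaks. Over all chromosomes together, wild-type-only sites were thus in excess where shared binding was sparse, and mutant-only sites with 4 to 9 shared regions nearby. Chromosome X, with the fewest shared sites per Mb, went the other way, as given next.

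The balance also varied between chromosomes, with chromosome X at the upper end. Of the single-genotype peaks on X, 306 were mutant only and 234 wild type only, so 56.7% were mutant only (52.4 to 60.9). On the autosomes 48.3% were (47.7 to 48.9), from 43.6% on chromosome 13 (40.8 to 46.4) to 52.1% on chromosome 11 (49.6 to 54.5). Per Mb, up to the last peak of any list, X had 1.84 mutant-only, 1.41 wild-type-only and 2.87 shared sites, against 4.99, 5.33 and 9.49 in that order on the autosomes. With ICI, X did not stand apart in this balance. There 78.5% of its single-genotype peaks were mutant only (75.2 to 81.5), against 78.6% on the autosomes (78.2 to 79.1). Shared regions made up between 44.6% of the union on chromosome 3 (42.6 to 46.6) and 51.2% on chromosome 11 (49.5 to 53.0).

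**Figure D3:**
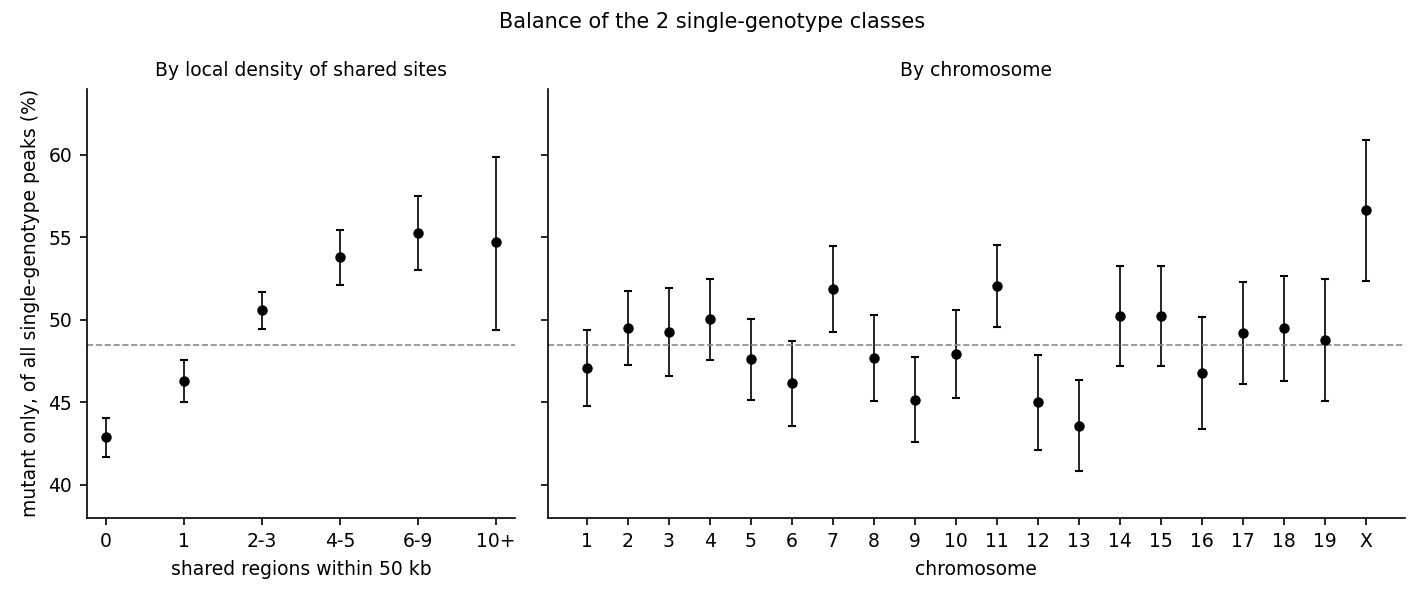
Share of single-genotype tamoxifen peaks that were mutant only (y axis, percent, not starting at 0), by the number of shared regions within 50 kb on the left and by chromosome on the right; bars are exact 95% binomial intervals and the dashed line is the share over all peaks, 48.5%. The share is 42.9% with no shared region nearby and 55.3% with 6 to 9, and chromosome X stands at 56.7%.

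Sites of one genotype tended to follow one another along the chromosome. When shared regions were passed over, the single-genotype site after a mutant-only site was again mutant only in 57.9% of cases (57.1 to 58.8), against 48.5% of all such next sites. After a wild-type-only site it was again wild type only in 60.4% (59.5 to 61.2), against 51.5%. Uninterrupted by shared or opposite sites, 128 runs held 5 or more mutant-only sites, 739 sites in all, and 195 runs held 5 or more wild-type-only sites, 1211 in all.

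The longest run of the wild type lay on chromosome 6 at 67251115 to 70167193, where 24 wild-type-only sites followed each other over 2916 kb with no mutant tamoxifen peak between them. In that span the ICI lists held 1 mutant and 9 wild-type peaks, and the vehicle lists 0 mutant and 5 wild-type peaks. Of the 24 sites themselves, 1 was also a mutant ICI peak and 8 were wild-type ICI peaks. The run was chosen for its lack of mutant tamoxifen peaks, while the ICI and vehicle lists had no part in that choice. Whether this sequence is equally present and equally well covered by reads in both mouse lines was not tested, since the lists hold neither input nor sequence. The next wild-type runs were 14 sites on chromosome 18 at 21533755 to 22190026 (656 kb) and 13 sites on chromosome 16 at 39065745 to 41511146 (2445 kb). The span of the first of these held 4 mutant and 2 wild-type ICI peaks, and 0 mutant and 2 wild-type vehicle peaks. Of its 14 sites, 1 was also a mutant ICI peak and 2 were wild-type ICI peaks. The span of the second held 1 mutant and 4 wild-type ICI peaks, and 0 mutant and 2 wild-type vehicle peaks. Of its 13 sites, 1 was also a mutant ICI peak and 3 were wild-type ICI peaks.

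The longest run of the mutant lay on chromosome 3 at 120386263 to 120588679, with 12 mutant-only sites over 202 kb, of which 11 were also mutant ICI peaks and 1 a wild-type ICI peak. On chromosome 7 at 74659799 to 74852255, 11 mutant-only sites spanned 192 kb, of which 8 were mutant ICI peaks and 2 wild-type ICI peaks. On chromosome 15 at 4306480 to 5013999, 11 mutant-only sites spanned 708 kb, and 9 of them were mutant ICI peaks, 2 mutant vehicle peaks and 0 wild-type peaks of either kind.

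Windows of 100 kb, laid from each chromosome's start, favoured the genotypes in nearly equal number. A peak was put in the window of its midpoint, and a window was scored where both tamoxifen lists together had at least 6 peaks. It was said to favour a genotype that had at least 2 times the peaks of the other. Of 4862 scored windows, 562 or 11.6% favoured the mutant and 566 or 11.6% the wild type. Scaling each list by its length left 562 for the mutant and 264 for the wild type. The 302 windows with exactly 2 times as many wild-type peaks then fell below the limit, while the 296 with exactly 2 times as many mutant peaks stayed above it. With more than 2 times required, 266 favoured the mutant and 264 the wild type. Of the windows that favoured one genotype, 3 of the mutant's and 2 of the wild type's held no peak of the other.

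Many windows held too few peaks for a large difference. Of the 14857 windows with a tamoxifen peak of either list, 1017 held 1 mutant peak and no other, and 1672 held 1 wild-type peak and no other. The mutant had more peaks in 4871 windows, the wild type in 5737, and 4249 were equal. An excess of 5 or more peaks was found in 147 windows for the mutant and in 110 for the wild type, with a largest excess of 9 and 11 peaks. The mutant-favouring windows also held 1200 shared regions and the wild-type-favouring windows 1136. Windows that favoured the same genotype lay side by side in 38 pairs for the mutant and 48 for the wild type, and 26 neighbouring pairs favoured different genotypes.

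**Figure D4:**
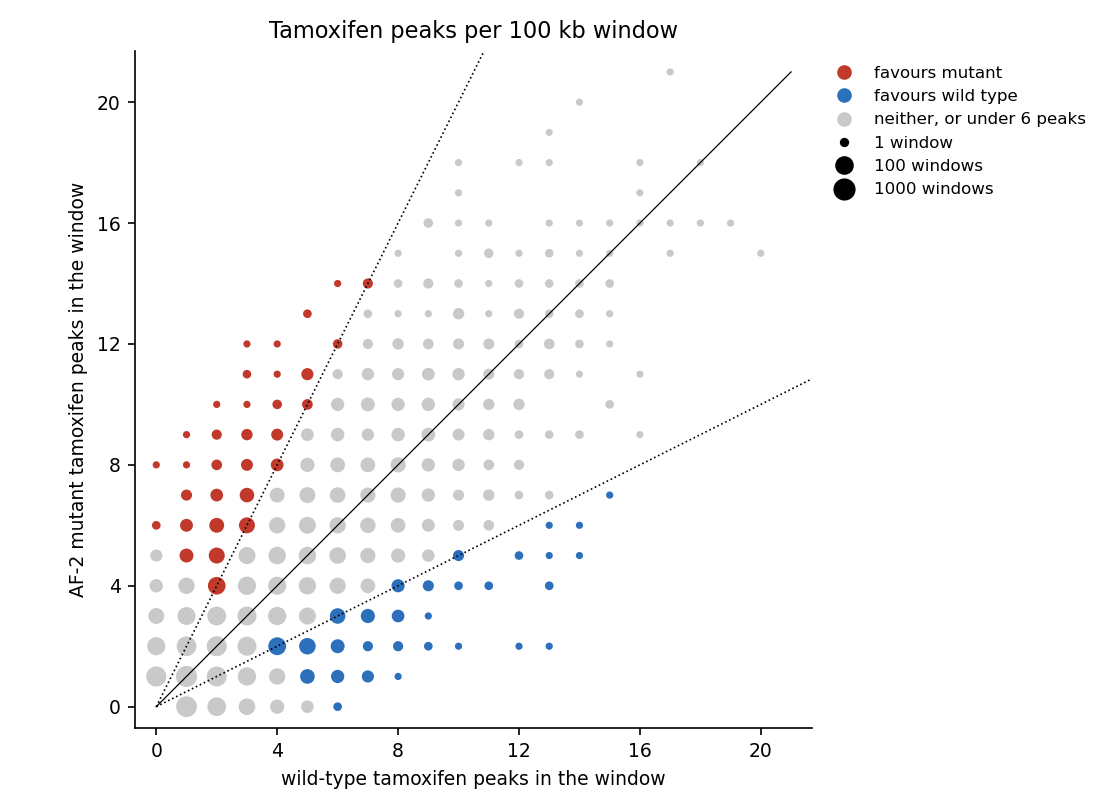
AF-2 mutant (y axis) against wild-type (x axis) tamoxifen peaks per 100 kb window, where each point is a combination of counts and its size grows with the number of windows; the solid line marks equal counts and the dotted lines 2 times as many in one genotype. The 562 windows favouring the mutant and the 566 favouring the wild type lie on or beyond the dotted lines. Of them, 199 hold 4 mutant and 2 wild-type peaks and 223 hold 2 and 4, the smallest gap that could be called.

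Set against all scored windows, those that favoured the mutant under tamoxifen more often had an excess of mutant peaks under ICI, and those that favoured the wild type less often. In all 4862 scored windows, the mutant ICI list had more peaks than the wild-type ICI list in 4044, as many in 501 and fewer in 317. Of the 562 mutant-favouring windows, it had more in 520, as many in 34 and fewer in 8. Of the 456 that were scored in the ICI lists, 308 or 67.5% had at least 2 times the peaks in the mutant, where 44.9% of all 4798 ICI-scored windows and 45.1% of the 4082 scored with both ligands did. In the vehicle lists these windows held 416 mutant and 142 wild-type peaks, against 2724 and 2127 in all scored windows. Of the 566 windows favouring the wild type, the mutant ICI list had more peaks in 350, as many in 103 and fewer in 113. Of the 364 scored in the ICI lists, 11 or 3.02% had at least 2 times the peaks in the wild type, where 1.40% of all ICI-scored windows and 0.637% of those scored with both ligands did. In the vehicle lists they held 145 mutant and 255 wild-type peaks.

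The greater length of the mutant ICI list bears on these counts. Scaled by list length, 124 of the 456 mutant-favouring windows (27.2%) had at least 2 times the ICI peaks in the mutant, where 11.1% of all ICI-scored windows and 10.7% of those scored with both ligands did. On the same scale, 72 of the 364 wild-type-favouring windows (19.8%) had at least 2 times the ICI peaks in the wild type, where 6.98% of all ICI-scored windows and 5.85% of those scored with both ligands did. The summed ICI peaks gave a ratio of mutant to wild type of 2.37 in mutant-favouring windows, 1.38 in wild-type-favouring windows and 1.74 in scored windows that favoured neither. Both kinds of window thus leaned the same way with ICI as with tamoxifen, once set against windows that favoured neither genotype.

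Single windows show the pattern peak by peak. The 6 with the largest excess in each direction were named, and ties went to the window with fewer peaks in the lower list and then to chromosome order. For the mutant, 10 windows were tied at the excess of 8 peaks that closed the list, and for the wild type 4 were tied at 8. The first mutant window, on chromosome 2 at 169500001 to 169600000, had 12 mutant and 3 wild-type tamoxifen peaks. Its 3 wild-type peaks were all shared and its other 9 sites mutant only. Of the 12 mutant tamoxifen peaks, 9 were also mutant ICI peaks and 1 a wild-type ICI peak.

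On chromosome 3 at 120400001 to 120500000, the mutant had 8 tamoxifen peaks and the wild type 0. The mutant peaks began at 120450897, 120464943, 120465616, 120480626, 120482089, 120483779, 120493072 and 120497184, each 200 bp wide, all beyond the middle of the window. With ICI the mutant had 8 peaks there and the wild type 0, and 7 of the 8 tamoxifen peaks were also mutant ICI peaks. The mutant vehicle list had 1 peak and the wild-type vehicle list 0. This window lies within the longest mutant-only run. In no wild-type library was a peak called in it.

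The other mutant windows were alike. Chromosome 7 had 3 of them. At 149700001 to 149800000 there were 9 mutant and 1 wild-type tamoxifen peaks, with 8 mutant and 1 wild-type peaks under ICI. At 73700001 to 73800000 there were 10 and 2 with tamoxifen, and 11 and 1 with ICI. At 56700001 to 56800000 there were 11 and 3 with tamoxifen, and 14 and 2 with ICI. On chromosome 19 at 44500001 to 44600000 there were 11 and 3 with tamoxifen, and 12 and 3 with ICI, in each pair the mutant first. Over the 6 windows, all 12 wild-type tamoxifen peaks were shared, and of the 61 mutant tamoxifen peaks 52 were also mutant ICI peaks and 5 wild-type ICI peaks.

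The first wild-type window, on chromosome 7 at 140900001 to 141000000, had 2 mutant and 13 wild-type tamoxifen peaks, and 4 ICI peaks in each genotype. It held 1 mutant-only, 12 wild-type-only and 1 shared site, and of its 13 wild-type tamoxifen peaks 4 were wild-type ICI peaks and 3 mutant ICI peaks. The wild-type-only sites ran from 140922177 to 140978282 and the lone mutant-only peak lay beyond them at 140985290 to 140985489. On chromosome 10 at 82500001 to 82600000 there were 2 mutant and 12 wild-type tamoxifen peaks, with 6 mutant and 4 wild-type peaks under ICI. On chromosome 2 at 154500001 to 154600000 there were 4 and 13 with tamoxifen, 6 and 7 with ICI, and 0 and 4 with vehicle, in each pair the mutant first.

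The remaining wild-type windows lay on chromosomes 3, 9 and 12. On chromosome 3 at 58900001 to 59000000 the mutant had 4 and the wild type 13 tamoxifen peaks, with 7 and 6 ICI peaks in that order. On chromosome 9 at 55200001 to 55300000 the mutant had 5 and the wild type 14, with 7 ICI peaks in each. On chromosome 12 at 16700001 to 16800000 the mutant had 2 and the wild type 10, with 6 ICI peaks in each, and 0 mutant and 3 wild-type vehicle peaks. Over the 6 wild-type windows there were 19 mutant and 75 wild-type tamoxifen peaks, 36 mutant and 34 wild-type ICI peaks, and 1 mutant and 10 wild-type vehicle peaks. Over the 6 mutant windows there were 61 mutant and 12 wild-type tamoxifen peaks, 63 mutant and 8 wild-type ICI peaks, and 5 mutant and 1 wild-type vehicle peaks. Divided by the ratio of list lengths, the ICI ratio of mutant to wild type was 4.55 in the mutant windows and 0.612 in the wild-type windows. The mutant windows leaned to the mutant under ICI with or without this division. As counted, the wild-type windows were nearly even under ICI, with 36 mutant and 34 wild-type peaks, and their ratio fell below 1 only after the division. What made the mutant ICI list longer was not tested. The windows were chosen for their tamoxifen difference, and the mutant ICI list is 1.73 times as long as the wild-type one, so these sums are descriptions of the named windows.

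**Figure D5:**
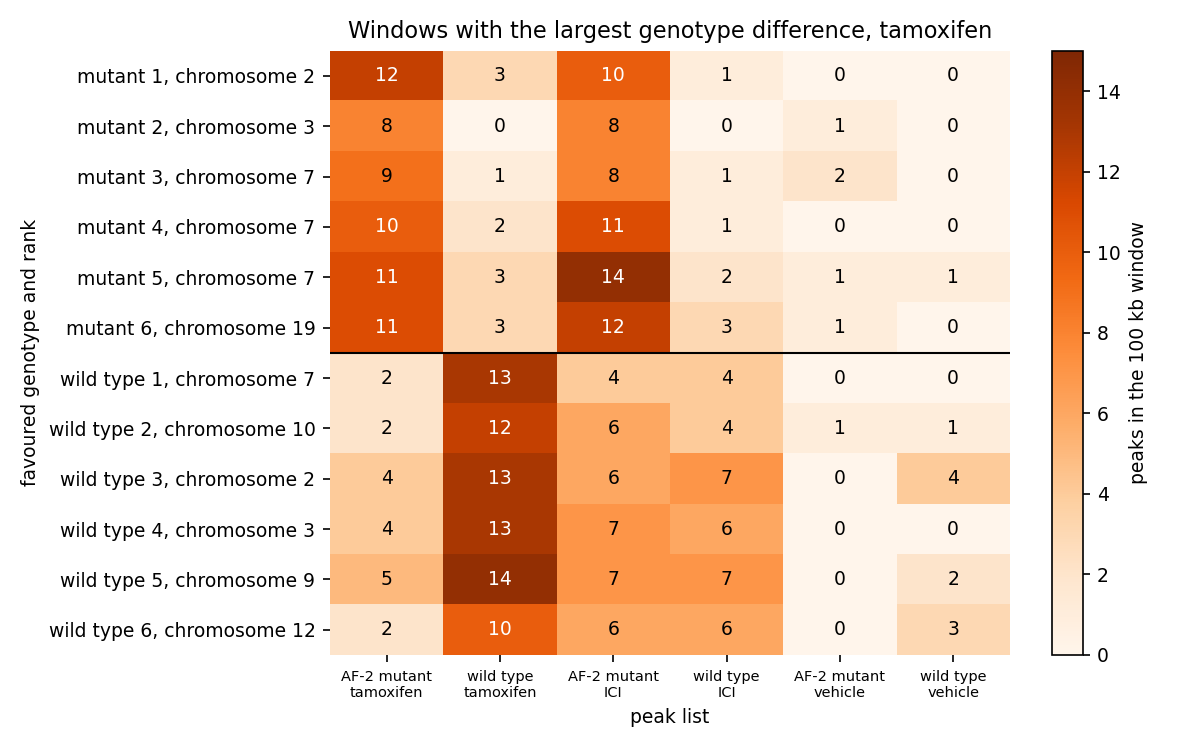
Peaks per list (columns, AF-2 mutant left of wild type for each treatment) in the 6 windows of 100 kb with the largest excess of mutant tamoxifen peaks (upper rows) and of wild-type tamoxifen peaks (lower rows), with the number written in each cell. In the upper rows mutant ICI has 8 to 14 peaks and wild-type ICI 0 to 3, and in the lower rows each genotype has 4 to 7 ICI peaks.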

How the data were processed

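ERα ChIP-seq peak lists of 6 libraries, 1 per genotype and treatment, were used. Each list is a deposited set of positions (chromosome, start, end) in mm9, and every peak is 200 bp wide; the authors gave no height, score or p-value per peak, so no stricter threshold could be set. The tools named are HOMER 4.10.3, bedtools 2.24.0, Bowtie2 2.1.0, Picard and SAMtools, per the submitters' processing notes. Not given in the sources used here: their roles, the peak threshold, whether input DNA entered the peak calls, and read depth. Depth and threshold set how many peaks a list holds, so a site missing from a list may have lain below its threshold. Nothing in the lists checks the genotype.

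Overlaps, distances between midpoints and windows were computed with numpy 2.4.6, scipy 1.17.1 and pandas 2.3.3 in Python 3.11.15 and drawn with matplotlib 3.10.9. The code recovered the classes, regions and windows of simulated lists, and 20 overlap counts were checked against bedtools 2.31.1, of which 0 differed. Shares have exact (Clopper-Pearson) 95% intervals. All chromosome names of the files were kept. Named were the 6 windows and 3 longest runs in each direction, the 3 most remote peaks of each single-genotype class and the first 2 shared sites. Members, lists and rules were chosen with earlier results of these data known. Position relative to genes and sequence motifs would need a genome and annotation in mm9; only GRCm38 tables were to hand, so genes are not named and no sequence is printed.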

Additional observations from a re-analysis of the deposited data

Results flagged for a closer look

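Among the list lengths and the named windows only, 3 values as deposited differed one way between the genotypes under tamoxifen and the other way under ICI. Beyond the named windows such reversals were common. Of all 566 windows favouring the wild type, 350 had more mutant than wild-type ICI peaks, and of the 562 favouring the mutant 8 had fewer. The list length was 0.979 times as long in the mutant as in the wild type with tamoxifen and 1.73 times as long with ICI. In the window on chromosome 10 at 82500001 to 82600000, mutant minus wild type was -10 peaks with tamoxifen and 2 with ICI. In that on chromosome 3 at 58900001 to 59000000 it was -9 and 1. Divided by the ratio of list lengths, the ICI ratio of mutant to wild type was 0.867 in the first window and 0.674 in the second. Both ratios were below 1 only after this division, and they rest on few peaks. As counted, the first window held 6 mutant and 4 wild-type ICI peaks and the second 7 and 6. With 1 library per group none of these differences was tested. No group has the 4 samples needed to look for a sample that stands apart.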

How the results depend on the processing

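With an overlap of at least 100 bp, 64.7% of mutant and 63.3% of wild-type peaks were shared. With midpoints within 500 bp these shares were 67.2% and 65.4%, within 1000 bp 69.4% and 67.2%, and with neighbouring peaks merged 67.3% and 64.9%. Mutant-only peaks were in the mutant ICI, wild-type ICI and mutant vehicle lists at 66.0%, 15.8% and 8.02% with 100 bp, and at 69.4%, 18.3% and 9.56% with 500 bp. Wild-type-only peaks were in the wild-type ICI list at 25.7% and 28.3%. Each of these lay outside the counting interval of the value given above. With at least 10 peaks a window, 1989 windows were scored, and 116 or 5.83% favoured the mutant and 91 or 4.58% the wild type. Both shares lay below the 11.6% found for each genotype with at least 6 peaks, so many calls there rest on small counts. Scaled by list length, 264 favoured the wild type, since windows at exactly 2 times fell out. Median distances, the share on chromosome X and the share with no shared region nearby (the last 2 recomputed at 100 bp as a choice made after seeing the data), and the window counts after a 50 kb shift, in 200 kb windows and after merging, moved less than their interval or than 1.5 times. Windows favouring the mutant and the wild type numbered 569 and 495 after the shift, and 450 and 511 in 200 kb windows. After merging they numbered 450 and 495, so which genotype had more windows depended on the setting. Restriction to chromosomes 1 to 19 and X moved the shares and the median distances by less than their intervals. A stricter peak threshold was not run, since the lists hold no score. No paired analysis was possible because each group has 1 library. Read depth is unknown, so no limit on undetected binding can be given.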

Other observations

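At the scale of 1 Mb, the regions with no shared tamoxifen site stood farthest from an even balance. In 211 windows of 1 Mb with single-genotype peaks and no shared region, 137 peaks were mutant only and 343 wild type only, so 28.5% were mutant only (24.5 to 32.8). With 1 to 3 shared regions the share was 41.5% (39.3 to 43.7), with 4 to 9 it was 46.6% (45.3 to 48.0), with 10 to 19 it was 48.3% (47.3 to 49.3), and with 20 or more it was 52.6% (51.6 to 53.7). These windows were looked at after the balance by local density had been seen. The wild-type run of 24 sites over 2916 kb on chromosome 6 spanned whole windows of the first kind. Whether these windows are equally present and covered by reads in both mouse lines was not tested.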
